A study of Mus musculus with 8 samples.

Results

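Forkhead (Fox) and Sox proteins are DNA-binding transcription factors, and this account covers their genes in mouse embryonic kidneys exposed to CHIR99021. The set was defined by gene symbol, with earlier results of these data known. Of 61 genes whose symbol is Fox with a letter from a to s and a number, or Sox with a number, *Foxd1*, *Sox7*, *Sox8*, *Sox9*, *Sox17* and *Sox18* were left out. This gave 55 of 30890 genes in the count table, 41 forkhead and 14 Sox genes.

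Kidneys of C57BL/6 embryos at E12.5 were grown on a floating filter for 72 hours, 4 with CHIR99021 at 5 µM and 4 with 0.1% DMSO, and the RNA of each whole kidney was sequenced. CHIR99021 inhibits GSK-3β and thereby activates Wnt/β-catenin signaling. In the study's design, the left kidney of an embryo was the control and the right one was treated, and kidneys that did not show the usual Wnt target response were excluded. The values are therefore from responding kidneys, and they are averages over all cell types of the organ.

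Forkhead proteins bind DNA through a winged-helix domain, and Sox proteins bend it through an HMG box related to that of the testis gene *Sry*. In the developing kidney, *Foxc1*, *Foxc2* and *Foxd2* are genes of mesenchyme and podocytes, and *Sox4* and *Sox11* are active in nephron progenitors. FoxO proteins are the targets of insulin and AKT signaling, *Foxj1* directs motile cilia, *Foxm1* drives mitotic genes, and *Sox10* marks neural crest and glia.

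Counts per sample summed to between 14599082 and 17751992. Values in CPM are counts scaled to library size after TMM scaling, which adjusts for library composition, and 1 CPM is worth 13.9 to 18.5 counts. Adjusted p-values are from edgeR's quasi-likelihood test over 16723 genes, and n = 4 per group throughout. Genes described as having risen or fallen passed an adjusted p of 0.05, and both thresholds also require an absolute log2 fold change over 1. Whether embryos of a group shared a litter is not stated, so p-values measure the spread between these samples. All 8 listed nephron progenitor markers and all 9 ureteric epithelium markers had enough counts to be tested.

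Of the 55 genes, 33 had enough counts to be tested. Of these, 5 rose, 17 fell and 11 did not pass. Among all tested genes 23.7% rose and 25.0% fell. Past both thresholds, 2 members rose and 5 fell, against 4.65% and 9.16% of all tested genes. All 7 were forkhead genes. Those that rose, *Foxi3* and *Foxl2*, passed the filter on low counts only through the treated samples, so their number is a description and is not read against the share of all genes. With limma on log2(FPKM + 1), a scale with no adjustment for library composition, 2537 of all genes rose and 6064 fell, against 3958 and 4180 in edgeR, and no called member changed direction. The median log2 fold change of the tested members was -0.25, and that of all tested genes -0.0029. The shares of 23.7% and 25.0% and the median of all tested genes are also the background for the gene lists below. The treated and control samples did not overlap in 22 of the 33 members, against 46.1% of all tested genes. *Foxi3* and *Foxl2* are among these 22 and among the 5 that rose, so for them these counts are a description too. The 17 members that fell and 4 of the 5 that rose were among the 22 without overlap. Without overlap, all 4 pairs of equal replicate number go the same way however kidneys are paired, so the pairs add no support. *Sox4* overlapped, and the treated kidney was higher in 3 of 4 pairs.

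**Figure D1:**
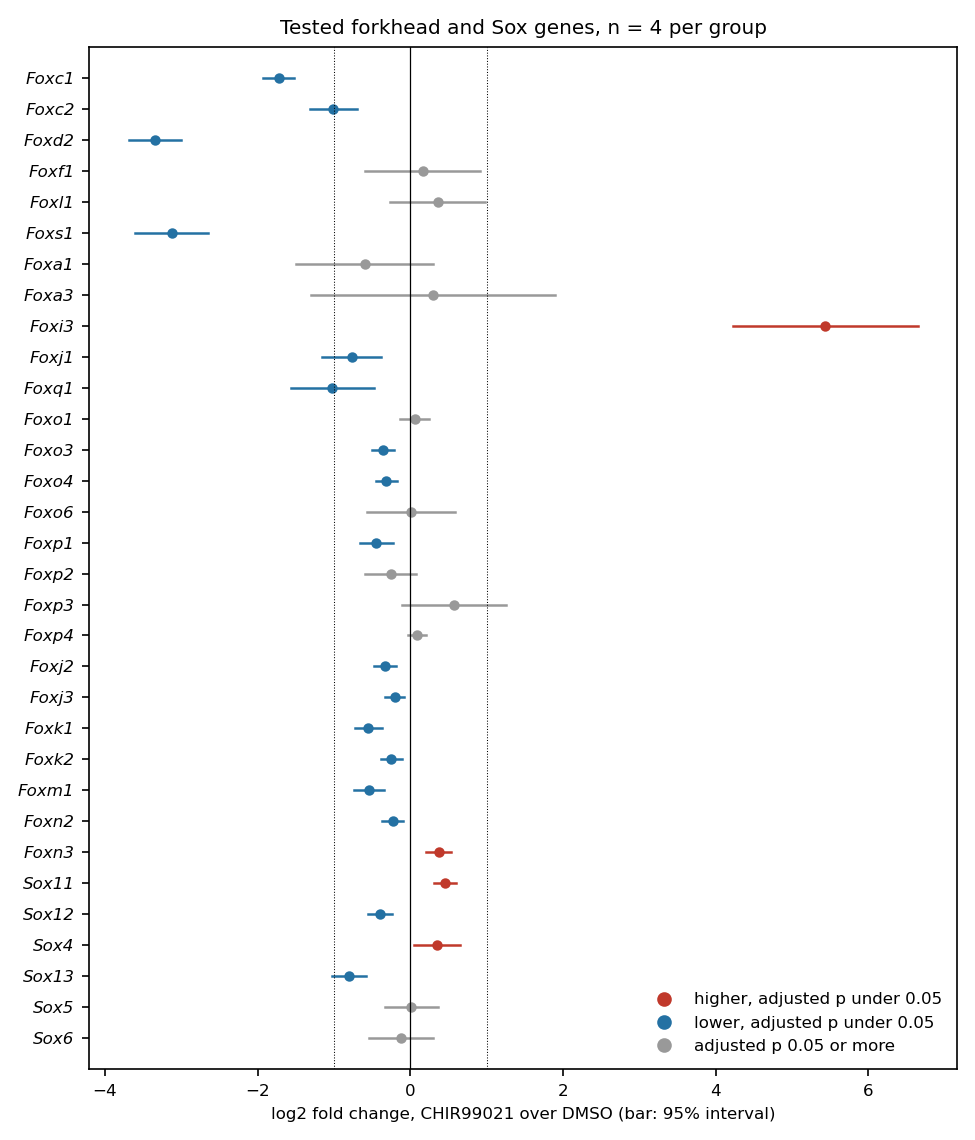
Log2 fold change of CHIR99021 over DMSO (x axis) for 32 tested forkhead and Sox genes, each point with its 95% interval; dotted lines mark 1 and -1. *Foxl2*, with 0 counts in the DMSO group, is not drawn. *Foxd2* and *Foxs1* lie furthest to the left and *Foxi3* furthest to the right, while most other genes lie within the dotted lines.

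The largest falls among the members, those of *Foxd2*, *Foxs1* and *Foxc1*, were in forkhead genes of mesenchyme and blood vessels. Of 7 genes in this group, 6 were tested and 4 fell. Those 4, *Foxd2*, *Foxs1*, *Foxc1* and *Foxc2*, all passed both thresholds. *Foxd2* lies on chromosome 4 from 114906282 to 114908873 on the minus strand (GRCm38). Its levels were 21.4, 19.5, 23.7 and 19.2 CPM in DMSO replicates 1 to 4, and 1.87, 1.67, 2.51 and 2.17 CPM in the CHIR99021 replicates. The control samples stood close together and far above every treated sample. The fall from 20.9 ± 2.06 to 2.06 ± 0.366 CPM (mean ± SD) was a log2 fold change of -3.35 (SE 0.14, adjusted p = 1.89e-09).

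*Foxd2os* is a noncoding gene that starts 384 bases from *Foxd2* and runs the opposite way. It stood at 29.6, 24.7, 35.6 and 28.7 CPM in the DMSO replicates and at 3.62, 3.35, 4.66 and 3.68 CPM in the treated ones. Its log2 fold change was -2.95 (SE 0.14, adjusted p = 5.14e-09), so both genes of the pair fell, each without overlap between the groups. The other forkhead gene nearby, *Foxe3*, 16274 bases beyond *Foxd2*, had 1 count in all 8 samples.

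The bases before 3 of the genes past both thresholds are shown, since *Foxd2* had the lowest log2 fold change of the members, *Foxc1* the lowest of those above 50 CPM in the controls, and *Foxi3* rose. The window of *Foxd2* falls between *Foxd2* and *Foxd2os*. The sequences are from RefSeq (GRCm38.p6), where 39 of the 55 members had an entry, and run 5′ to 3′ on the strand of the gene. They end before the gene as annotated in the count table, and capitals mark CpG dinucleotides.
*Foxd2*, chr4:114908899-114909148, minus strand: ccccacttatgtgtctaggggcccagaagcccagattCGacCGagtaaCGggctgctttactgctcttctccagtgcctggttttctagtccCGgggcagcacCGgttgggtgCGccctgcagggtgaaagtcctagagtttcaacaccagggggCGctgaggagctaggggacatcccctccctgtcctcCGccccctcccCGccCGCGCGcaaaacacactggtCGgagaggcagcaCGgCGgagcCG
*Foxc1*, chr13:31806396-31806632, plus strand: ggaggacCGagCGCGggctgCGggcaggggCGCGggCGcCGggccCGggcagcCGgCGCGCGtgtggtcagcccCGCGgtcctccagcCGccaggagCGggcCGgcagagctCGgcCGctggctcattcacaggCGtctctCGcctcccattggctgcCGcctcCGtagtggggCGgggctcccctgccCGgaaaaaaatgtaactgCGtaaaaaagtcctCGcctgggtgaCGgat
*Foxi3*, chr6:70956356-70956530, plus strand: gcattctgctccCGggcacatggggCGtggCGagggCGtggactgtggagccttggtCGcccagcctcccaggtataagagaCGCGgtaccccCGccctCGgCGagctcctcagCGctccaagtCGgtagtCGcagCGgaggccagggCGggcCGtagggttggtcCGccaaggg

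All 3 windows were rich in G and C, with 64.4% in *Foxd2*, 72.6% in *Foxc1* and 70.3% in *Foxi3*, against a median of 52.4% over all promoters of 250 bases. They held 16, 29 and 17 CpG dinucleotides. Neither the TCF/LEF words CTTTGAT and CTTTGAA, nor the forkhead word GTAAACA, nor the Sox word ACAATGG was present on either strand of these windows. Over all 32851 RefSeq promoters, 3.21%, 4.46%, 3.17% and 3.02% held these words. Of the 39 members with an entry, CTTTGAT was found before *Sox6*, and CTTTGAA before *Sox6*, *Foxp1* and *Sox14*. GTAAACA was found before *Foxa1* and *Sox12*, and ACAATGG before *Foxp1* and *Sox5*.

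*Foxs1*, a forkhead gene of perivascular cells, fell with a 95% interval that overlapped that of *Foxd2*. Its levels were 6.55, 8.79, 7.62 and 6.87 CPM in the DMSO replicates and 1.06, 0.803, 0.718 and 0.789 CPM after CHIR99021. No treated sample came near the controls. The log2 fold change was -3.13 (SE 0.19, 95% interval -3.60 to -2.65, adjusted p = 6.33e-08). The gene lies on chromosome 2 from 152931898 to 152933208.

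*Foxc1* and *Foxc2* are close paralogs that act together in vessels, podocytes and kidney mesenchyme. *Foxc1*, on chromosome 13 from 31806633 to 31812476, stood at 66.2, 57.7, 54.1 and 59.7 CPM in the DMSO replicates and at 15.9, 18.5, 18.2 and 19.3 CPM in the treated ones. *Foxc2*, on chromosome 8 from 121116171 to 121118895, stood at 51.1, 61.5, 50.3 and 39.1 CPM and at 22.0, 24.9, 26.3 and 27.3 CPM. Both genes were lower in every treated sample than in any control. The log2 fold change was -1.73 for *Foxc1* (SE 0.081, 95% interval -1.93 to -1.53, adjusted p = 5.62e-09) and -1.01 for *Foxc2* (SE 0.13, 95% interval -1.32 to -0.70, adjusted p = 6.83e-05). The intervals do not overlap, and the difference between the genes was not tested further. DMSO replicate 2 was the highest control for *Foxc2*. Without it the log2 fold change was -0.90, and without CHIR99021 replicate 1 it was -0.95, both short of a size of 1. The fit blocked on replicate number gave -0.997, so that *Foxc2* did not pass both thresholds in the paired fit either, and no expression filter gave -0.991. The adjusted p of *Foxc2* was at most 0.00101 in every alternative.

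*Foxf1* and *Foxl1*, genes of gut and lung mesenchyme, did not pass. *Foxf1* had a log2 fold change of 0.16 with a 95% interval of -0.59 to 0.91, and *Foxl1* of 0.36 with an interval of -0.26 to 0.98. *Foxf2* was not tested, with 11 counts over the controls and 21 over the treated samples.

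**Figure D2:**
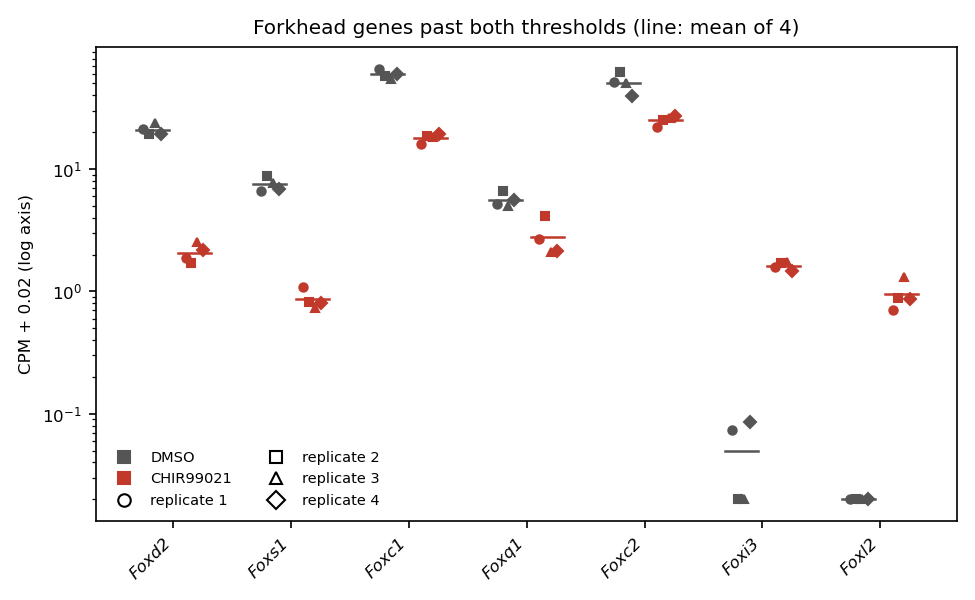
CPM plus 0.02 on a log axis for the 7 forkhead genes past both thresholds; points are single samples, shaped by replicate number, and lines are means of 4. For *Foxd2*, *Foxs1*, *Foxc1*, *Foxq1* and *Foxc2* every treated sample lies below every control, and for *Foxi3* and *Foxl2* every treated sample lies above.

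Markers of some cell types moved with these genes. All 8 nephron progenitor markers fell, and their summed level was 943.7 to 1154 CPM in the DMSO group and 276 to 339 CPM in the CHIR99021 group. All 9 endothelial markers fell, from summed levels of 454 to 625 CPM to 181 to 243 CPM. Of 8 stromal markers, 1 rose and 3 fell, and their sum was 1106 to 1218 CPM in the controls and 1305 to 1358 CPM in the treated kidneys. The higher sum came from *Pdgfra* alone, the marker that rose, from a mean of 222 to 505 CPM. *Cxcl12*, *Meis1* and *Tcf21* fell. Of 7 podocyte markers, 5 were tested, 1 rose and 3 fell, with sums of 121 to 189 CPM and 100.3 to 154 CPM. The part of these cell types in the falls of *Foxd2*, *Foxs1*, *Foxc1* and *Foxc2* was not tested. In whole-kidney RNA, fewer cells of a type and less RNA per cell cannot be told apart.

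Some of the members lie side by side. On chromosome 13, *Foxq1*, *Foxf2* and *Foxc1* lie in this order with gaps of 64840 and 175230 bases. *Foxq1* and *Foxc1* fell, and *Foxf2* stayed too low to test, at 0 to 0.393 CPM in the controls and 0.125 to 0.574 CPM in the treated samples. On chromosome 8, *Foxf1*, *Foxc2* and *Foxl1* lie with gaps of 28027 and 9045 bases, and *Foxc2* was the only one of these 3 to pass. Differences between neighbouring genes were not tested.

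The noncoding gene *Fendrr* starts 1276 bases before *Foxf1* on the opposite strand. It stood at 0.216, 0.856, 0.762 and 0.523 CPM in the DMSO replicates and at 1.62, 1.14, 1.15 and 1.05 CPM after CHIR99021. The groups did not overlap, and the log2 fold change was 1.07 (SE 0.37, adjusted p = 0.0277). *Fendrr* had 4, 15, 13 and 8 counts in the controls and passed the filter on low counts through the treated samples. Its call is therefore a description. *Fendrr* no longer passed once DMSO replicate 1 (adjusted p = 0.0662), DMSO replicate 4 (adjusted p = 0.0628) or CHIR99021 replicate 1 (adjusted p = 0.0894) was dropped, and its alternatives spanned 0.0199 to 0.0894.

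**Figure D3:**
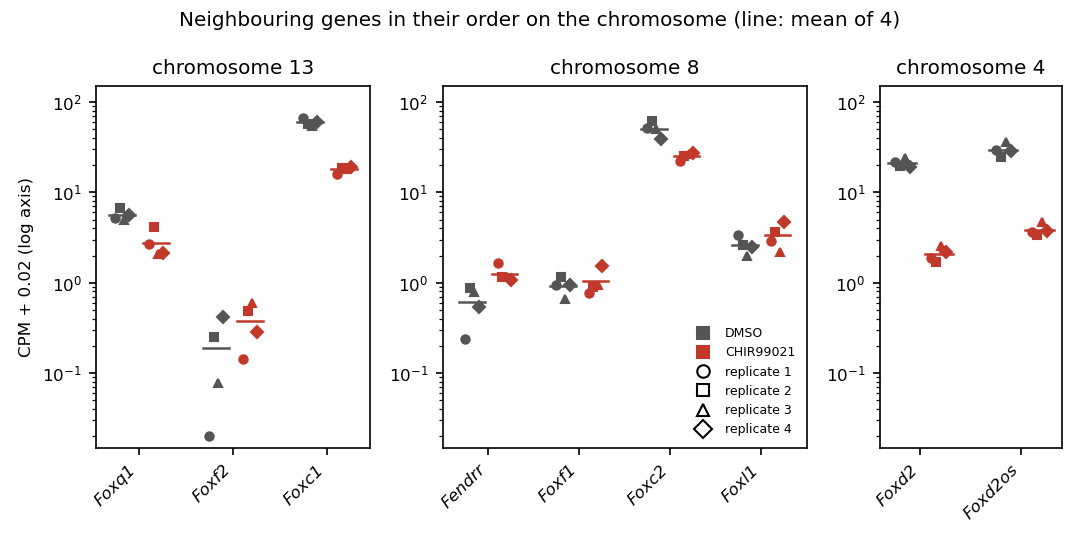
CPM plus 0.02 on a log axis for neighbouring genes, drawn in chromosome order without scale; points are single samples and lines are means of 4. *Foxd2* and *Foxd2os* are both lower after CHIR99021, whereas *Foxc2* is lower and *Foxf1* and *Foxl1*, on either side of it, overlap between groups.

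Of 9 forkhead genes of epithelia and cilia, 5 were tested, 1 rose and 2 fell. *Foxi3*, a gene of the embryonic ectoderm and pharyngeal region, was close to absent in the controls, with 1 count each in DMSO replicates 1 and 4 and 0 in the others. The treated replicates had 25, 25, 24 and 22 counts, or 1.56, 1.67, 1.72 and 1.45 CPM. The treated samples were alike and lay far above the controls. The ratio of the groups was 54.6, with a 95% interval of 14.7 to 457 that covers counting error only (adjusted p = 1.78e-06). The gene lies on chromosome 6 from 70956531 to 70961066, and no other annotated gene overlaps its exons.

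*Foxi1*, which directs the acid-secreting intercalated cells of the collecting duct, was not tested, with 21 counts over the controls and 7 over the treated samples. Of 12 genes listed for those cells, 6 were tested, 2 rose and 4 fell, with a median log2 fold change of -0.94. The proton pump subunit gene *Atp6v1b1* fell (log2 fold change -3.95, adjusted p = 5.59e-08) and so did the ammonia channel gene *Rhcg* (log2 fold change -1.57, adjusted p = 0.000423). *Atp6v1b1* had 10, 5, 5 and 9 counts in the treated replicates. It passed the filter on low counts only through the controls, so its call is a description. *Atp6v0d2*, another pump subunit gene, rose (log2 fold change 2.50, adjusted p = 0.000385).

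*Foxq1*, a gene of epithelia and hair, stood at 5.14, 6.62, 4.98 and 5.56 CPM in the DMSO replicates and at 2.68, 4.08, 2.08 and 2.10 CPM in the treated ones. CHIR99021 replicate 2 was the highest treated sample and still lay below every control. The log2 fold change was -1.02 (SE 0.22, adjusted p = 0.00195). Of the exon bases of *Foxq1*, 66.1% are also exon of *A530084C06Rik* on the opposite strand. The sources used here do not say whether counting used strand, so reads from the shared bases may belong to either gene. Left out alone, DMSO replicate 2, CHIR99021 replicate 3 or CHIR99021 replicate 4 brought the log2 fold change to between -0.93 and -0.91.

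*Foxj1*, the master gene of motile cilia, stood at 4.44, 4.74, 5.92 and 4.91 CPM in the controls and at 2.93, 2.88, 3.01 and 2.89 CPM after CHIR99021. All treated samples were lower, and the log2 fold change was -0.77 (SE 0.16, adjusted p = 0.0014). Of 19 listed motile cilium genes, 11 were tested, 2 rose and 2 fell, with a median log2 fold change of -0.30. *Cfap43* rose (log2 fold change 0.57, adjusted p = 2.67e-05) as *Rfx3*, a transcription factor of cilia, fell (log2 fold change -0.34, adjusted p = 0.000841), and so did *Cfap126* (log2 fold change -1.03, adjusted p = 0.0202). *Cfap126* had 22, 20, 21 and 14 counts in the controls and 13, 6, 4 and 10 in the treated replicates. It passed the filter on low counts through the controls, so its call is a description.

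*Foxa1* and *Foxa3*, genes of endoderm, epithelia and liver, did not pass, and their samples were spread widely. *Foxa1* stood at 2.00, 5.25, 2.52 and 3.34 CPM in the DMSO replicates and at 1.06, 3.35, 2.22 and 2.04 CPM in the treated ones. Replicate 2 was the highest in both groups, and the treated kidney was the lower one in 4 of 4 pairs. The log2 fold change was -0.60 (SE 0.37, adjusted p = 0.203), and a fit blocked on replicate number gave -0.60 with an adjusted p = 0.0258, the lowest of a range up to 0.55 over the alternatives.

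*Foxa3* stood at 0.108, 0.971, 0.176 and 1.18 CPM in the DMSO replicates and at 0.874, 0.803, 1.00 and 0.263 CPM in the treated ones. DMSO replicates 2 and 4 were the higher controls. The liver genes *Alb*, *Afp* and *Fga*, looked at after the values were seen, were higher in the same libraries. *Alb* stood at 581 and 404 CPM in DMSO replicates 2 and 4, at 14.2 and 0.117 CPM in DMSO replicates 1 and 3, and at 0 to 0.144 CPM in the treated samples. The sum of 8 liver genes was 1334 and 956 CPM in DMSO replicates 2 and 4 and 1.31 to 8.05 CPM in the treated group. With all samples, the log2 fold change of *Foxa3* was 0.30 (adjusted p = 0.735). Without the replicates numbered 2 and 4 it was 2.67 (adjusted p = 0.00832, against 0.267 to 0.993 in the other alternatives), with 2 samples per group. This split was chosen after the data were seen. It drops the higher controls and the lowest treated sample, so the p-value from it is no support for a rise of *Foxa3*. The part of liver RNA in these values was not tested. *Foxa2* had 9 counts in each group.

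**Figure D4:**
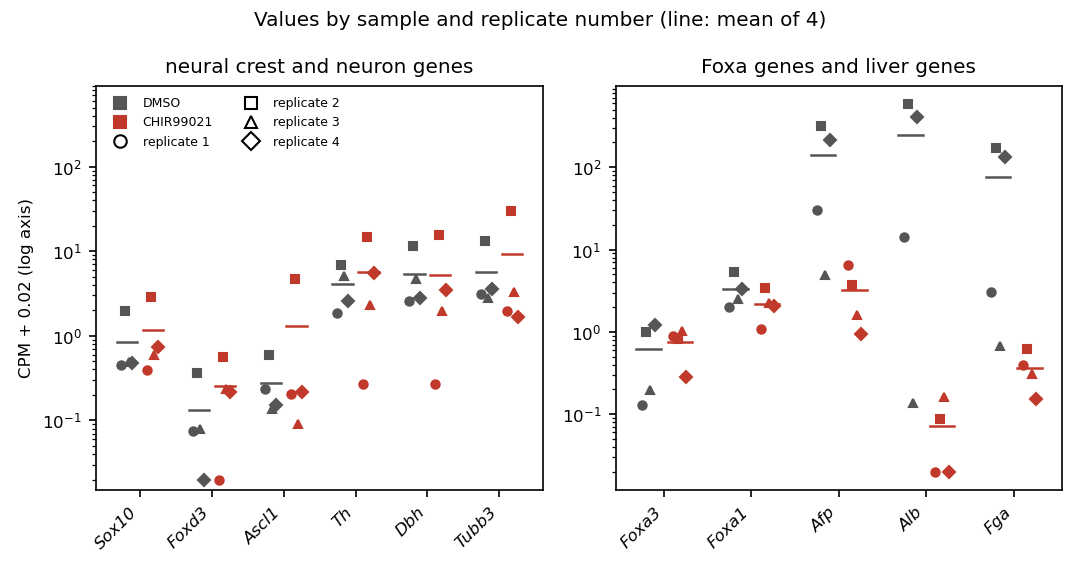
CPM plus 0.02 on a log axis for *Sox10* and *Foxd3* beside neural genes (left) and for *Foxa3* and *Foxa1* beside liver genes (right); points are single samples, shaped by replicate number, and lines are means of 4. Squares, which mark replicate 2, are highest in both groups on the left, and DMSO replicates 2 and 4 are highest for the liver genes on the right.

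*Foxl2*, a gene of the ovary and the pituitary, is named after its values were seen, since its mean was under 1 CPM in both groups. Its counts were 0 in every control and 11, 13, 18 and 13 in the treated replicates, or 0.686 to 1.29 CPM. Taking 3 counts over the control group as the floor, and the treated counts as exact, it was at least 20.8-fold higher (adjusted p = 5.65e-05). *Foxl2os*, on the opposite strand and overlapping *Foxl2* by 12 bases, had 1 count in the controls and 59 in the treated samples and was not tested. Of 8 markers of adrenal cortex and gonad, 4 were tested and 1 passed, which was *Nr5a1*, a steroidogenic regulator that fell (log2 fold change -4.41, adjusted p = 2.64e-05). *Nr5a1* had 83 counts over the controls and 3 over the treated samples. It passed the filter on low counts only through the controls, so its call is a description.

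Of 4 FoxO genes, all tested, 2 fell. *Foxo3* stood at 21.2, 18.8, 17.6 and 19.3 FPKM (fragments scaled to gene length and library size, for comparing genes) in the DMSO replicates and at 13.7, 13.8, 14.0 and 13.3 FPKM in the treated ones. The treated samples were lower throughout, and from the counts the log2 fold change was -0.36 (SE 0.058, adjusted p = 0.000243). *Foxo4* fell by 0.31 on the log2 scale (SE 0.055, adjusted p = 0.000444). *Foxo1* had a log2 fold change of 0.06 with a 95% interval of -0.13 to 0.25, and *Foxo6* of 0.01 with an interval of -0.56 to 0.58.

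Of 15 listed FoxO target genes, all tested, 5 rose and 5 fell, with a median log2 fold change of -0.14. The 3 with the smallest p all rose. They were the stress gene *Gadd45a* (log2 fold change 0.96, adjusted p = 1.29e-06), *Trp53inp1* (log2 fold change 0.89, adjusted p = 1.63e-06) and *Pik3ip1*, an inhibitor of PI3 kinase (log2 fold change 0.76, adjusted p = 7.86e-06).

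Among FoxP genes, 1 of 4 fell. *Foxp1*, a gene of many tissues including vessels and lymphocytes, stood at 64.98 to 80.7 CPM in the controls and at 44.6 to 57.5 CPM in the treated samples, with a log2 fold change of -0.45 (SE 0.088, adjusted p = 0.00115). *Foxp4* stood at 16.6, 15.5, 16.3 and 17.0 FPKM in the DMSO replicates and at 15.3, 15.4, 16.6 and 16.1 FPKM in the treated ones. Its samples overlapped, and from the counts the 95% interval of its log2 fold change was -0.03 to 0.21. Its mean was 77.0 CPM in the controls and 81.9 CPM after treatment, so the means in FPKM and in CPM leaned opposite ways. *Foxp2* had a log2 fold change of -0.25 (adjusted p = 0.146), and without CHIR99021 replicate 1 of -0.37 (adjusted p = 0.035, in alternatives from 0.035 to 0.615). *Foxp3*, the regulator of regulatory T cells, stood at 0.603 ± 0.0902 CPM in the controls and 0.895 ± 0.123 CPM after treatment (log2 fold change 0.57, adjusted p = 0.111). Of its exon bases, 18.6% are shared with *Flicr* on the same strand.

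All 7 forkhead genes of the cell cycle and of broad expression passed the test, 6 lower and 1 higher, and none reached a log2 fold change of 1 in size. *Foxk2*, the most abundant forkhead gene per length, stood at 22.4, 22.7, 22.1 and 24.5 FPKM in the DMSO replicates and at 16.4, 16.9, 18.1 and 19.0 FPKM in the treated ones. From the counts its log2 fold change was -0.25 (SE 0.056, adjusted p = 0.00257). The related *Foxk1* fell by 0.55 on the log2 scale (SE 0.073), and its 95% interval of -0.73 to -0.37 just met that of *Foxk2*, -0.38 to -0.11. *Foxj2* (-0.33), *Foxj3* (-0.21) and *Foxn2* (-0.23) fell as well. *Foxn3*, a repressor that acts at cell cycle checkpoints, was the only one of these 7 to rise, with means of 68.7 ± 6.24 CPM in the controls and 88.8 ± 4.91 CPM after treatment, a log2 fold change of 0.37 (SE 0.068, adjusted p = 0.000599).

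*Foxm1*, the activator of mitotic genes, stood at 72.7, 60.6, 60.9 and 68.1 CPM in the DMSO replicates and at 42.2, 41.2, 50.7 and 45.6 CPM in the treated ones. The groups did not overlap, and the log2 fold change was -0.55 (SE 0.080, adjusted p = 0.000103). Of 15 listed mitotic targets, all tested, 11 fell and 4 did not pass, with a median log2 fold change of -0.36. Among all tested genes 25.0% fell, and the median was -0.0029. The cyclin gene *Ccna2* (log2 fold change -0.63, adjusted p = 8.25e-06), the centrosomal kinase gene *Nek2* (log2 fold change -0.96, adjusted p = 1.28e-05) and *Cdc20*, an activator of the anaphase complex (log2 fold change -0.58, adjusted p = 7.15e-05), had the smallest p.

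Sox genes of the C group were the most abundant Sox genes per length and moved in opposite directions. *Sox11* stood at 26.9, 24.2, 23.1 and 24.6 FPKM in the DMSO replicates and at 32.4, 27.7, 31.9 and 31.3 FPKM after CHIR99021. Every treated sample was above every control. *Sox11* rose, with means of 196 ± 13.6 CPM in the controls and 269 ± 17.6 CPM after treatment, a log2 fold change of 0.46 (SE 0.061, adjusted p = 4.56e-05). *Sox12*, the third gene of this group with *Sox4*, stood at 29.1, 25.5, 28.7 and 27.7 FPKM in the controls and at 17.1, 18.8, 20.5 and 20.7 FPKM in the treated samples. Its groups did not overlap, and its log2 fold change was -0.39 (SE 0.064, adjusted p = 0.000244).

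*Sox4* stood at 15.5, 17.5, 19.3 and 20.4 FPKM in the DMSO replicates and at 17.6, 24.3, 23.8 and 18.6 FPKM in the treated ones. CHIR99021 replicates 1 and 4 lay within the range of the controls, and replicates 2 and 3 above it. The log2 fold change was 0.35 (SE 0.12, adjusted p = 0.0439), higher in 3 of 4 pairs. *Sox4* failed the test in 12 of 19 alternatives, whose adjusted p spanned 0.00704 to 0.188. These included no expression filter (adjusted p = 0.11) and dropping any of the controls numbered 1 to 3 or the treated samples numbered 2 and 3, 1 at a time (adjusted p = 0.0672 to 0.101). Of its exon bases, 54.6% are also exon of *Gm26735* on the opposite strand, so its level carries the same doubt as that of *Foxq1*.

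The order of levels per length differed between the groups. In the controls *Sox12* (27.8 ± 1.61 FPKM) and *Sox11* (24.7 ± 1.59 FPKM) led, followed by *Foxk2* (22.9 ± 1.09 FPKM), *Foxc2* (19.4 ± 3.44 FPKM) and *Foxo3* (19.2 ± 1.48 FPKM). The samples of each of these genes overlapped those of the next, though *Foxk2*, at 22.1 to 24.5 FPKM, met *Foxc2* through DMSO replicate 2 alone. After CHIR99021 *Sox11* led (30.8 ± 2.11 FPKM) without overlap with *Sox4* (21.1 ± 3.42 FPKM), *Sox12* (19.3 ± 1.69 FPKM) or *Foxk2* (17.6 ± 1.19 FPKM), and the samples of the latter 3 overlapped. *Foxc2* then stood at 8.79 ± 0.843 FPKM.

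**Figure D5:**
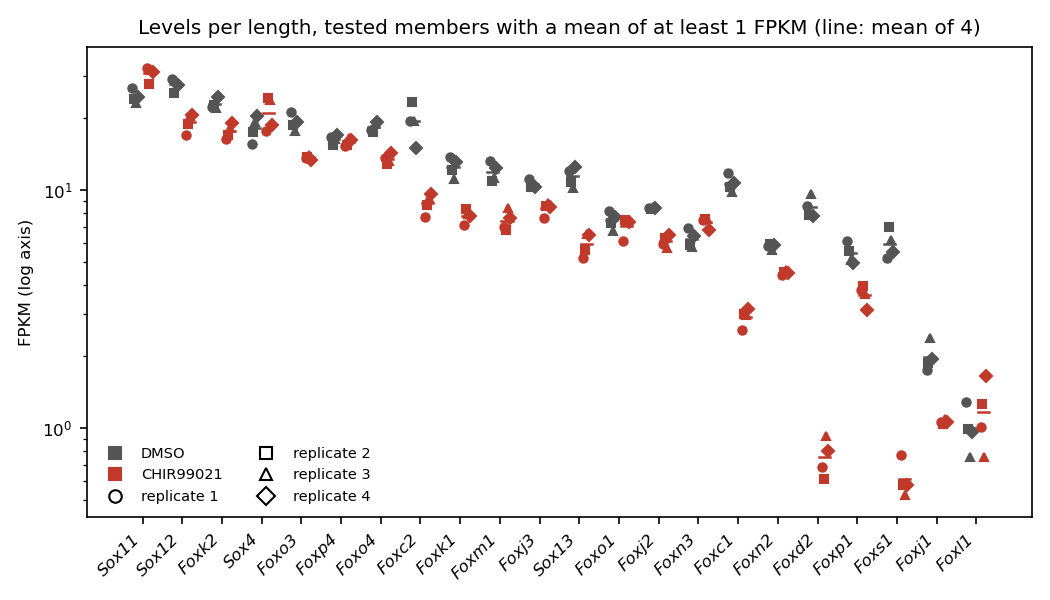
FPKM on a log axis for the tested members with a mean of at least 1 FPKM, ordered by the mean over all samples; points are single samples, shaped by replicate number, and lines are means of 4. *Sox11* is the one gene at the upper end whose treated samples all lie above its controls, and *Foxd2*, *Foxs1* and *Foxc1* show the widest gaps between groups.

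Of the 3 SoxD genes, of which *Sox5* and *Sox6* act in cartilage with *Sox9*, 1 fell. *Sox13*, known also for binding TCF1, stood at 49.9, 44.8, 41.6 and 51.5 CPM in the DMSO replicates and at 23.5, 25.5, 29.5 and 29.1 CPM in the treated ones. The groups lay apart, with a log2 fold change of -0.80 (SE 0.090, adjusted p = 1.08e-05). *Sox5* had a log2 fold change of 0.02 with a 95% interval of -0.33 to 0.36, and *Sox6* of -0.12 with an interval of -0.54 to 0.30. Of 13 listed cartilage genes, 10 were tested, 1 rose and 4 fell, with a median log2 fold change of -0.60. The collagen genes *Col11a2* (log2 fold change -2.58, adjusted p = 1.56e-09) and *Col9a1* (log2 fold change -3.04, adjusted p = 9.92e-08) fell, and *Col11a1* rose (log2 fold change 0.97, adjusted p = 1.85e-06).

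*Sox10* was low and highest in replicate 2 of both groups. It had 8, 34, 8 and 7 counts in the DMSO replicates and 6, 43, 8 and 11 in the CHIR99021 replicates, so that both samples numbered 2 stood apart. *Foxd3*, an early neural crest gene, had 6 and 8 counts in the samples numbered 2 and 0 to 3 in all others. Neither gene passed the filter, and with no filter their adjusted p was 0.745 and 0.466. Genes of sympathetic neurons were high in the same samples. *Dbh*, the enzyme that makes noradrenaline, stood at 11.5 CPM in DMSO replicate 2 and 15.4 CPM in CHIR99021 replicate 2, against 0.25 to 4.63 CPM in the other 6. The summed level of 8 neuron markers was 117 and 136 CPM in the samples numbered 2, against 57.8 to 76.1 CPM in the other controls and 9.49 to 21.3 CPM in the other treated kidneys. The part of nerve tissue in the *Sox10* and *Foxd3* values was not tested.

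Of 14 listed neural crest and glia genes, 8 were tested, 2 rose and 3 fell, with a median log2 fold change of -0.03. *Mitf*, the pigment cell regulator, rose (log2 fold change 0.83, adjusted p = 4.99e-07), and the receptor genes *Ngfr* (log2 fold change -1.19, adjusted p = 0.00362) and *Erbb3* (log2 fold change -0.36, adjusted p = 0.0064) fell.

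In all, 22 members had too few counts to be tested, 10 of them with at least 10 counts over the 8 samples and 12 with fewer. SoxB genes, which act in neural and pluripotent cells, were all in this set. *Sox21* had 0, 0, 1 and 1 counts in the DMSO replicates and 4, 10, 12 and 8 in the treated ones, a ratio of 19.3 with a 95% interval of 4.96 to 166. *Sox2* had 0 counts in the controls and 4, 0, 3 and 2 in the treated replicates, so CHIR99021 replicate 2 did not differ from the controls. The 9 counts of the treated group were at least 3.41-fold higher by the same floor as for *Foxl2*. With no expression filter, *Sox21* (adjusted p = 4.80e-05) and *Sox2* (adjusted p = 0.0172) passed, and the other 20 did not. Of the exon bases of *Sox21*, 18.8% are also exon of *Gm4675* on the opposite strand. *Sox2ot*, the noncoding gene that spans *Sox2*, had 0 and 5 counts.

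The remaining untested members showed no such contrast. *Sox30*, a gene of the male germ line, had 46 counts over the controls and 27 over the treated samples. *Foxn1*, the thymus regulator, had 21 and 23 counts, *Sox15* 19 and 17, and *Foxr2* 17 and 10. *Foxh1*, *Foxe1*, *Sox1*, *Sox3*, *Foxi2*, *Foxd4*, *Sox14*, *Foxb2*, *Foxe3*, *Foxn4* and *Foxr1* had between 1 and 6 counts over all samples, a depth at which a difference was not detectable.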

How the data were processed

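RNA was sequenced from 8 cultured kidneys. The authors mapped filtered reads to GRCm38 (HISAT2 2.0.5), and the deposited count of each gene, from featureCounts, is an unscaled whole number. The deposited FPKM values were made by the authors from the counts. The authors' own fold changes and p-values in the table were not used. The annotation release, featureCounts version and strand setting are not given in the sources used here.

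Groups follow the treatment each label gives. Genes were kept by filterByExpr (minimum count 10, minimum total 15; 16723 of 30890), scaled by TMM and compared with edgeR 4.0.16 in R 4.3.3 (glmQLFit, robust, group as the only term), with Benjamini-Hochberg adjustment over all tested genes. SEs were taken from the F statistic, and 95% intervals from the SE on 6 residual degrees of freedom. CPM is relative to the TMM-scaled library size, where 1 CPM corresponds to 13.9 to 18.5 counts. Ratios and floors cover no more than counting error, and floors take the treated counts as exact. The procedure was tested on simulated data. Overlaps are from GENCODE M21, in which 50 of 55 members had the same coordinates.

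Equal replicate numbers were taken as pairs, since the study paired the kidneys of an embryo and same-numbered samples deviated together across genes (r of 0.111 to 0.346, others -0.18 to 0.0766). Alternatives were the replicate block, RLE and upper-quartile scaling, DESeq2 1.42.0, limma 3.58.1 on log2(count + 1), log2(FPKM + 1) and log2(FPKM + 0.1), no filter, a filter of 1 CPM in 4 samples, and each sample left out. Leaving out replicate 2, or 2 and 4, of both groups was added after the data were seen.

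Members and lists were chosen with earlier results of these data known. Named in full were members past both thresholds at 1 CPM or more in a group and the 6 most abundant by FPKM; of each list, up to 3 genes with the smallest p. 1 gene of the neural crest and glia list is not reported here and was left out of its counts and median.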

Additional observations from a re-analysis of the deposited data

Results flagged for a closer look

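Among 76 groups of 4 samples of 38 members, 4 had 1 sample far from the rest by Dixon's gap test. By chance the test flags about 1 group in 20, so 4 is near the number expected by chance. The 38 were the 33 tested members and the untested *Sox10*, *Foxd3*, *Sox21*, *Foxi1* and *Foxf2*, which were picked by name. Other untested members were not checked. *Sox10* stood at 1.94 CPM in DMSO replicate 2, against 0.433 to 0.469 CPM in the other controls, and at 2.88 CPM in CHIR99021 replicate 2, against 0.374 to 0.723 CPM in the other treated samples. *Foxd3* stood at 0.343 CPM in DMSO replicate 2, against 0 to 0.0586 CPM. *Foxn3* stood at 81.4 CPM in CHIR99021 replicate 4, against 90.7 to 91.8 CPM in the other treated samples.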

How the results depend on the processing

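Of the 22 members called, 17 kept the call under all alternatives that tested them. Of the 11 without one, 7 stayed so. Over 19 alternatives no called member changed direction. With the replicate block *Foxa1* passed (adjusted p = 0.0258), and the block changed no other call of a member or neighbour at an adjusted p of 0.05, but *Foxc2*, at -0.997, no longer passed both thresholds. On log2(count + 1) with limma *Foxp3* passed (adjusted p = 0.00276). *Sox4* did not pass with upper-quartile scaling (adjusted p = 0.0738) or limma on log2(count + 1) (adjusted p = 0.122), log2(FPKM + 1) (adjusted p = 0.183) or log2(FPKM + 0.1) (adjusted p = 0.18). Hence 1 Sox gene rose in place of 2 in these 4 fits, and 1 to 2 with samples left out, including replicate 2, or 2 and 4, of both groups. Members higher past both thresholds numbered 1 in place of 2 on log2(FPKM + 1) and with 1 CPM in 4 samples, and 4 with no filter, by *Sox2* and *Sox21*. Members lower past both thresholds numbered 3 in place of 5 on log2(count + 1), 4 with the replicate block, no filter, log2(FPKM + 1) or replicate 2 of both groups left out, and 3 to 5 with single samples left out, the 3 without DMSO replicate 2, where *Foxc2* and *Foxq1* stood at -0.90 and -0.93. Without replicates 2 and 4 of both groups, the calls of *Foxj1* (adjusted p = 0.0545), *Foxj3* (adjusted p = 0.0637), *Foxk2* (adjusted p = 0.082), *Foxn2* (adjusted p = 0.172) and *Fendrr* (adjusted p = 0.0704) ended on 2 samples per group. Motile cilium calls then numbered 1 (2 without replicate 2 alone) in place of 4, and intercalated cell calls 3 in place of 6. On the FPKM scale the median of all genes moved to -0.10 and -0.13. Genes under about 10 counts per sample are beyond this depth.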

Other observations

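Markers of further cell types were measured beside the members. All 8 macrophage markers fell, with a summed level of 94.6 CPM in DMSO replicate 4, 393 to 422 CPM in the other controls and 7.89 to 43.2 CPM in the treated kidneys. Of 9 ureteric epithelium markers, 1 rose and 5 fell. Of 6 erythroid markers, 3 were tested and 0 passed in edgeR, at an unadjusted p under 0.05 too, with summed levels of 4.60 to 16.0 CPM and 2.75 to 7.56 CPM. Of 8 neuron markers, 2 fell and 6 did not pass.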
